A study of Ovis aries with 8 samples.

Results

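The genes of glycolysis, glucose uptake and sensing, lactate exchange and glycogen turnover were examined in the mediobasal hypothalamus of food-restricted and well-fed ewes. The set held 32 genes, chosen by symbol for their role, and each had its own row among the 33609 genes of the count table. Food-restricted ewes were set against well-fed (ad lib) ewes, and all were adults of 1 breed, Ile-de-France. The tissue is a block at the base of the brain that holds the arcuate nucleus. RNA of ewes from 2 years was mixed into 4 pools of 15 ewes per group, so n counts pools throughout. If each ewe entered 1 pool and the years were equal, each group held 60 ewes, 30 in each year. The labels give neither the year of a pool nor whether an ewe entered more than 1 pool.

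Glucose enters the brain through facilitative transporters, chiefly GLUT1 of endothelium and glia and GLUT3 of neurons, and is trapped by hexokinase before it passes down the glycolytic chain to pyruvate. Pyruvate enters mitochondria through pyruvate dehydrogenase or is turned into lactate, which monocarboxylate transporters carry between cells, an exchange proposed to run from astrocytes to neurons. Astrocytes also hold the brain's small glycogen store, and some hypothalamic neurons and tanycytes change their activity with glucose. In sheep, as in other ruminants, little glucose is absorbed from the gut and most is made by the liver.

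Total counts ran from 41261774 to 42964514 in food-restricted pools and from 36192025 to 48125991 in well-fed pools. The 32 genes took between 1.38% and 1.54% of all counts in food-restricted pools and between 1.45% and 1.62% in well-fed pools. The first principal component of log2 CPM (CPM being counts scaled to a common library size) held 34.7% of the variance and did not follow feeding. Food-restricted pools 1 and 2 and well-fed pools 3 and 4 lay above 0 on it, and food-restricted pools 3 and 4 and well-fed pools 1 and 2 lay below. All 8 pools kept their side when the component was computed without the 32 genes. What sets the pools apart along it was not tested. The 10 marker genes of the mediobasal hypothalamus were all measured, with summed levels between 693 and 1084 CPM under food restriction and between 491 and 1145 CPM in well-fed pools.

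No gene of the set passed the test for a change with food restriction. All 32 had enough reads to be tested, and 0 of 32 passed the threshold of 0.05 on the adjusted p (edgeR quasi-likelihood test, adjusted p = 1 for each), beside 0.00550% of the 18193 genes tested, which is the single gene AGRP. At an unadjusted p under 0.05 there were also 0 of 32, against 1.70% of all genes (0.671% higher and 1.03% lower), and DESeq2 and limma voom called 0 of 32 as well. In none of the 32 genes did the food-restricted pools lie wholly above or below the well-fed pools, which was the case for 1.60% of all genes (0.495% above and 1.10% below). The log2 fold changes (food-restricted minus well fed) lay between -0.32 for SLC16A7 and 0.33 for SLC2A4, and the smallest unadjusted p was 0.184, for PKM.

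The fitted values leaned slightly downward. The log2 fold change was below 0 in 22 of 32 genes, beside 47.0% of all genes, with a median of -0.04 against 0.01 over all genes. These genes share pools and vary together, so the count is a description. It rested in part on well-fed pool 1, without which 16 of 32 genes were below 0 and the median was -0.01. The 95% intervals show how large a change the pools could have hidden. In the fit reported, the interval of 28 of 32 genes lay wholly inside a 1.5-fold change in either direction, a yardstick chosen after the values were seen. The 4 others were SLC2A4, HK2, PFKFB3 and SLC16A7, and 3 of them were under 10 CPM in both groups.

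**Figure D1:**
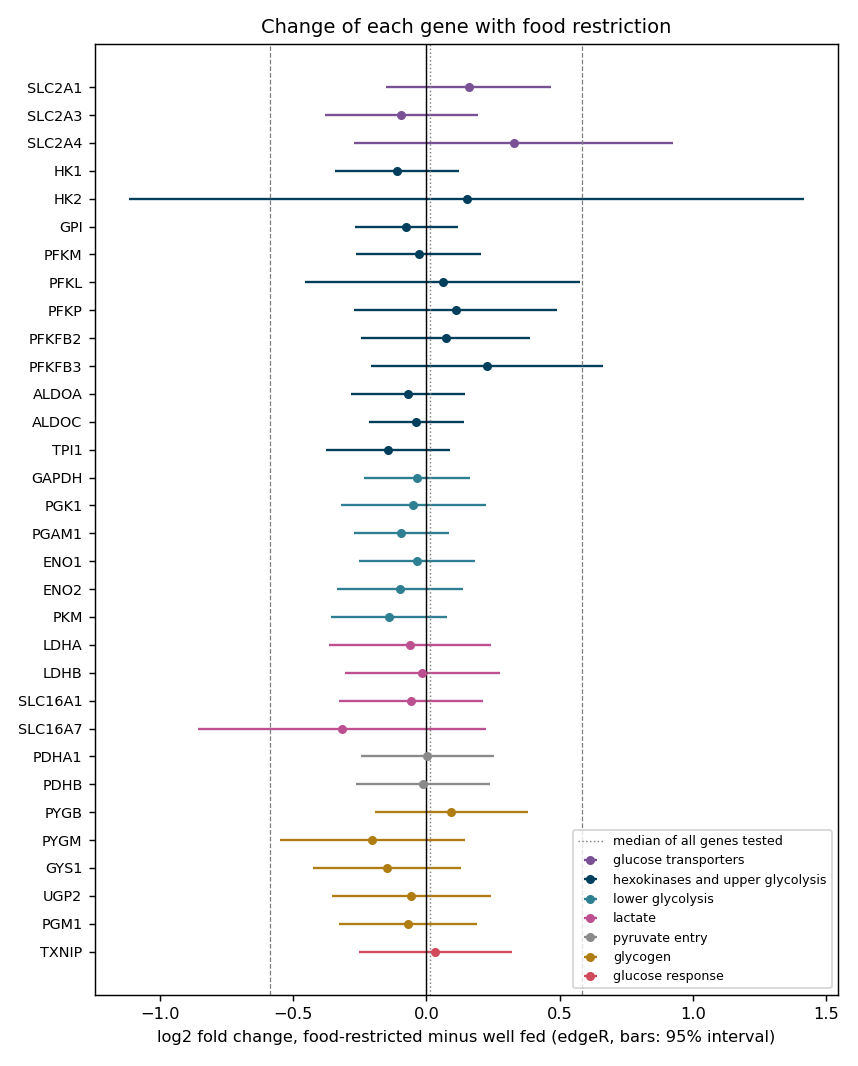
Log2 fold change of each of the 32 genes, food-restricted minus well fed (horizontal axis, edgeR), ordered by role. Points are fitted values and bars 95% intervals; dashed lines mark a 1.5-fold change and the dotted line the median of all genes tested (0.01). Every interval crosses 0, and those of SLC2A4, HK2, PFKFB3 and SLC16A7 reach past a dashed line.

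The transporters that carry glucose into the tissue gave values in both directions. SLC2A1 (gene ID 443461) encodes GLUT1, the transporter of the blood-brain barrier. It was at 109, 113, 90.2 and 85.8 CPM in food-restricted pools 1 to 4, against 90.1, 73.1, 105 and 88.3 CPM in well-fed pools 1 to 4. Food-restricted pools 1 and 2 were the highest of the 8 and well-fed pool 2 the lowest, and the groups overlapped. The log2 fold change was 0.16 (SE 0.14, edgeR adjusted p = 1), with a 95% interval from a 0.901-fold to a 1.38-fold level. The endothelial marker list had 4 of 8 members higher in food-restricted pools, and its sum ran from 196 to 266 CPM under food restriction and from 197 to 230 CPM in well-fed pools, highest in food-restricted pool 2. The part of endothelial content in the level of SLC2A1 was not tested, and in whole tissue fewer cells of a type and less RNA per cell cannot be told apart.

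SLC2A3 (gene ID 443308) encodes GLUT3, the high-affinity transporter of neurons. Its levels were 44.7, 53.6, 61.5 and 55.9 CPM in food-restricted pools 1 to 4 and 64.8, 53.4, 60.3 and 51.7 CPM in well-fed pools 1 to 4. Food-restricted pool 1 was the lowest and well-fed pool 1 the highest, with the other 6 pools mixed. The fold change was -0.09 on the log2 scale (SE 0.13). SLC2A4, the insulin-regulated GLUT4, was scarce, at 3.16 ± 0.678 CPM under food restriction and 2.52 ± 0.583 CPM in well-fed pools (SD, n = 4 each). Its fold change of 0.33 (SE 0.27) was the highest of the set, and its 95% interval ran from -0.27 to 0.93 on the log2 scale. The sum of the 3 transporters was between 146 and 169 CPM under food restriction and between 130 and 167 CPM in well-fed pools.

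Hexokinases commit glucose to the pathway. HK1 (gene ID 100036759), the form of brain, was at 229, 279, 237 and 258 CPM in food-restricted pools 1 to 4 and at 295, 256, 288 and 244 CPM in well-fed pools 1 to 4. Well-fed pools 1 and 3 were the highest, yet food-restricted pools 2 and 4 stood above well-fed pool 4 (log2 fold change -0.11, SE 0.11). HK2, the inducible form of muscle and other insulin-responsive tissue, had only 30, 54, 137 and 18 counts in food-restricted pools 1 to 4 and 46, 40, 61 and 62 counts in well-fed pools 1 to 4. The highest and the lowest pool were both food-restricted. Its fitted change of 0.15 had an SE of 0.57, and the interval ran from a 0.461-fold to a 2.67-fold level. Between food-restricted pools its CPM had a coefficient of variation of 88.8%, against 26.8% between well-fed pools.

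Phosphofructokinase is the main control point of glycolysis, and its 3 subunit genes did not behave alike across pools. PFKM, the muscle-type subunit that brain also uses, averaged 463 ± 44.2 CPM under food restriction and 473 ± 44.5 CPM in well-fed pools (SD, n = 4 each; log2 fold change -0.03, SE 0.11). PFKL, the liver-type subunit, was at 108, 143, 74.7 and 97.3 CPM in food-restricted pools 1 to 4 and at 76.2, 76.3, 134 and 119 CPM in well-fed pools 1 to 4. Its pools ranged over nearly the same values in both groups, with a high pair and a low pair in each (0.06, SE 0.23). PFKP, the platelet-type subunit, ordered the pools in much the same way, at 132 ± 28.2 CPM under food restriction and 122 ± 20.4 CPM in well-fed pools (0.11, SE 0.17).

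PFKFB2 and PFKFB3 are bifunctional enzymes that make fructose 2,6-bisphosphate, the strongest activator of phosphofructokinase. Both had fitted values above 0, while PFKFB4 of the same family, outside the set, was at -0.05 (SE 0.15). PFKFB3 (gene ID 101107621), the form with the highest kinase activity and one that astrocytes use, was at 59.1, 98.2, 53.6 and 69.5 CPM in food-restricted pools 1 to 4 and at 65.1, 47.8, 70.7 and 55.6 CPM in well-fed pools 1 to 4. Food-restricted pool 2 stood above the other 7, and food-restricted pools 1, 3 and 4 lay within the range of well-fed pools. On the log2 scale the change was 0.23 (SE 0.20). Without food-restricted pool 2 it was 0.04, the lowest value that leaving out any pool gave. PFKFB2, the heart-type form, averaged 48.4 ± 6.51 CPM under food restriction and 46.0 ± 6.69 CPM in well-fed pools (0.07, SE 0.14).

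The other enzymes of upper glycolysis gave fitted values between -0.14 and -0.04, and none passed. GPI, which turns glucose 6-phosphate into fructose 6-phosphate, had a log2 fold change of -0.07 (SE 0.09), ALDOA, the general aldolase, -0.07 (SE 0.10), and ALDOC, the aldolase of brain and a marker of astrocytes, -0.04 (SE 0.08). TPI1, which interconverts the 2 triose phosphates, was at 721, 656, 667 and 731 CPM in food-restricted pools 1 to 4 and at 884, 803, 668 and 708 CPM in well-fed pools 1 to 4. Well-fed pools 1 and 2 exceeded all food-restricted pools, while well-fed pools 3 and 4 lay among them (-0.14, SE 0.11). GPI ran from 576 to 626 CPM under food restriction and from 592 to 679 CPM in well-fed pools, and ALDOC from 1711 to 1985 CPM under food restriction and from 1824 to 1992 CPM in well-fed pools. The 11 genes of this stretch had 6 values below 0 and a median of -0.03.

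All 6 genes of lower glycolysis had fitted values below 0, between -0.14 and -0.04, with a median of -0.07, beside 47.0% of all genes below 0. Leaving out 1 pool brought GAPDH to as high as 0.0219, ENO1 to 0.0315 and PGK1 to 0.0342. GAPDH, the first enzyme of this stretch and a common reference gene, was at 2735, 2601, 2273 and 2776 CPM in food-restricted pools 1 to 4 and at 2541, 2574, 2632 and 2906 CPM in well-fed pools 1 to 4. Food-restricted pool 3 was the lowest and well-fed pool 4 the highest, and the remaining pools were interleaved (-0.04, SE 0.09). Its 95% interval ran from a 0.849-fold to a 1.12-fold level. The log2 fold changes were -0.05 (SE 0.12) for PGK1 and -0.09 (SE 0.08) for PGAM1, the kinase and the mutase of phosphoglycerate. They were -0.04 (SE 0.10) for ENO1, the general enolase, and -0.10 (SE 0.11) for ENO2, the enolase of neurons.

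PGAM1 ran from 593 to 638 CPM under food restriction and from 623 to 694 CPM in well-fed pools, a narrow overlap. ENO2 ran from 935 to 1030 CPM under food restriction and from 921 to 1206 CPM in well-fed pools, with well-fed pools 1 and 2 above the rest.

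PKM, the pyruvate kinase of brain, had the smallest p of the set. It was at 1591, 1796, 1503 and 1722 CPM in food-restricted pools 1 to 4 and at 2082, 1838, 1716 and 1655 CPM in well-fed pools 1 to 4. Well-fed pools 1 and 2 exceeded all food-restricted pools, and well-fed pool 4 lay below food-restricted pools 2 and 4. The log2 fold change was -0.14 (SE 0.10), which is a 0.907-fold level with an interval from 0.779-fold to 1.06-fold. The sum of the 6 genes was 7100 ± 425 CPM under food restriction and 7483 ± 339 CPM in well-fed pools (SD, n = 4 each). Well-fed pool 1 was the highest in this sum and in TPI1, PGK1, PGAM1, ENO1, ENO2 and PKM. By RefSeq gene order, 2 genes stand between ENO2 and TPI1 and 21 between TPI1 and GAPDH in the sheep genome.

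The feeding difference was also computed for all 32 genes on each side of the first principal component, and is given here mainly for the 6 enzymes. This reading was not among the planned comparisons. The component is drawn from the same libraries. Below 0 on it, with 2 pools in each group, the mean log2 CPM of food-restricted pools minus that of well-fed pools was -0.28 for PKM, -0.26 for ENO2, -0.18 for PGK1, -0.17 for PGAM1, -0.11 for ENO1 and -0.03 for GAPDH. Among the 4 pools above 0 the same differences were 0.0048 for PKM, 0.08 for ENO2, 0.10 for PGK1, -0.02 for PGAM1, 0.03 for ENO1 and -0.05 for GAPDH. Such differences were not particular to these enzymes, as genes named after their values were seen show. Below 0, SLC16A7 was at -0.41, PYGM at -0.39 and TPI1 at -0.27, while SLC2A4 was at 0.21 and PFKL at 0.16. Above 0, SLC16A7 was at -0.18, PYGM at -0.02, TPI1 at -4e-04, SLC2A4 at 0.45 and PFKL at -0.02. Whether the feeding difference itself varied between these sets of pools was not tested. With the side on this component as a block, 0 of 32 genes passed (lowest edgeR adjusted p = 0.991), and with 1 surrogate variable there were also 0 of 32 (lowest edgeR adjusted p = 0.857).

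**Figure D2:**
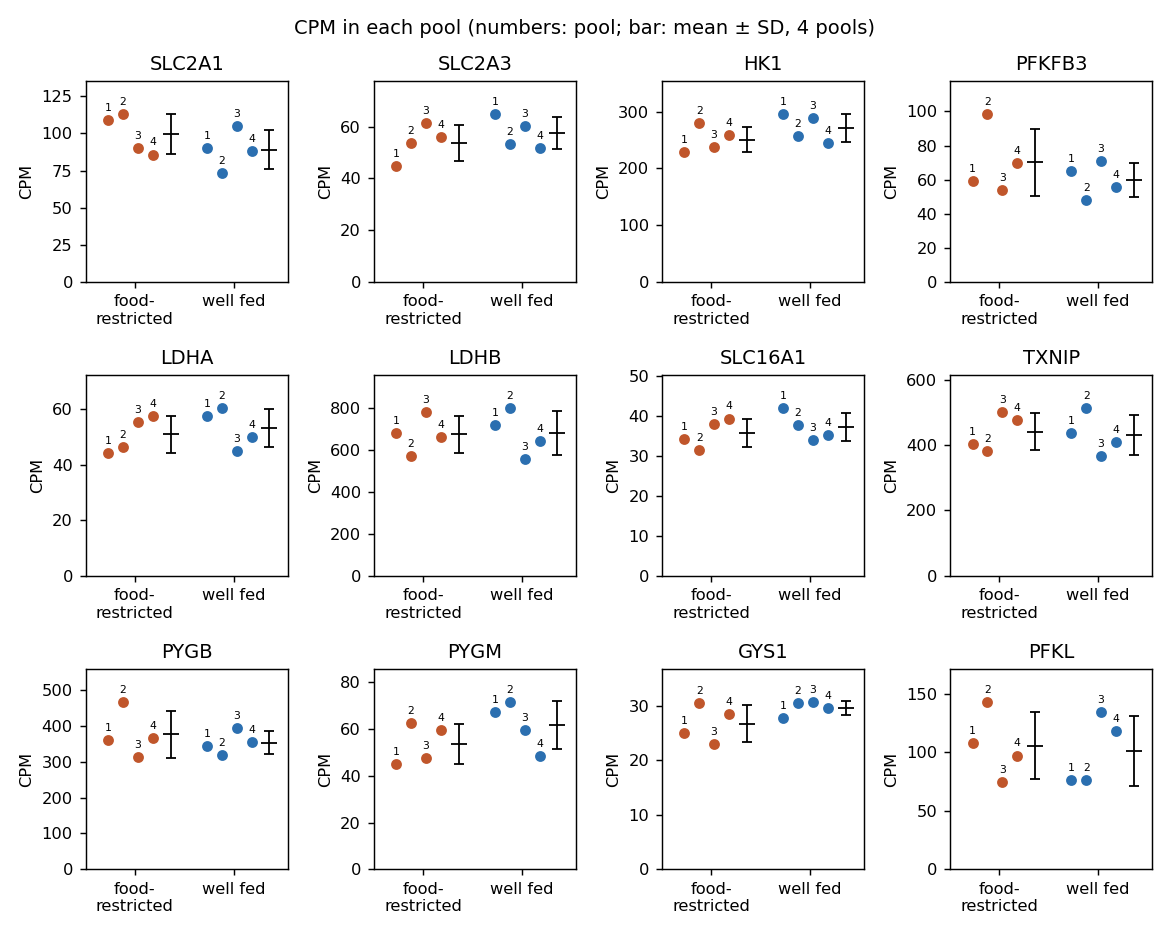
CPM (vertical axis, from 0) of 12 genes in each food-restricted pool (orange, left) and each well-fed pool (blue, right). Numbers are pool numbers and bars the mean ± SD of 4 pools. The 2 groups overlap in every panel, and PFKL has high and low pools in both groups, from 74.7 to 143 CPM under food restriction and from 76.2 to 134 CPM in well-fed pools.

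All 4 lactate genes had fitted values below 0, with a median of -0.06. Leaving out 1 pool brought LDHA to as high as 0.0067, LDHB to 0.0739 and SLC16A1 to 0.0171. LDHA (gene ID 443089), the lactate dehydrogenase subunit that favours lactate formation, was at 44.2, 46.4, 55.6 and 57.6 CPM in food-restricted pools 1 to 4 and at 57.5, 60.4, 45.1 and 49.8 CPM in well-fed pools 1 to 4. LDHB (gene ID 101118261), the subunit of neurons and heart that favours lactate use, was at 680, 574, 784 and 661 CPM in food-restricted pools 1 to 4 and at 722, 800, 560 and 645 CPM in well-fed pools 1 to 4. Each group held pools near the top and near the bottom for both genes, with log2 fold changes of -0.06 (SE 0.14) for LDHA and -0.01 (SE 0.13) for LDHB. LDHA, GAPDH and other glycolytic genes are known for processed copies elsewhere in mammalian genomes. How the authors counted reads shared between copies is not given in the sources used here, so the levels of LDHA and GAPDH are uncertain.

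Both lactate transporters are part of that count. SLC16A1 (gene ID 443456) encodes MCT1, found on endothelium, glia and tanycytes. It was at 34.1, 31.4, 38.0 and 39.3 CPM in food-restricted pools 1 to 4 and at 41.9, 37.7, 33.9 and 35.1 CPM in well-fed pools 1 to 4, a log2 fold change of -0.06 (SE 0.12) with overlapping pools. SLC16A7 encodes MCT2, the high-affinity transporter of neurons. Its levels were 3.70, 3.57, 5.46 and 4.58 CPM in food-restricted pools 1 to 4 and 6.57, 6.71, 3.92 and 4.37 CPM in well-fed pools 1 to 4. Well-fed pools 1 and 2 exceeded the other 6. The fold change of -0.32 (SE 0.25) was the lowest of the set, and its interval ran from a 0.551-fold to a 1.17-fold level.

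The entry of pyruvate into mitochondria gave the values nearest to 0. PDHA1, the catalytic alpha subunit of pyruvate dehydrogenase, averaged 122 ± 14.5 CPM under food restriction and 122 ± 7.76 CPM in well-fed pools (SD, n = 4 each). PDHB, its beta subunit, averaged 112 ± 13.1 CPM under food restriction and 113 ± 8.70 CPM in well-fed pools. Their log2 fold changes were 0.0040 (SE 0.11) for PDHA1 and -0.01 (SE 0.11) for PDHB, and both intervals lay between a 0.833-fold and a 1.19-fold level.

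Among glycogen genes, PYGB had a fitted value above 0, while PYGM, GYS1, UGP2 and PGM1 were below 0. PYGB (gene ID 554325), the brain glycogen phosphorylase that releases glucose from glycogen, was at 360, 466, 312 and 365 CPM in food-restricted pools 1 to 4 and at 343, 317, 394 and 356 CPM in well-fed pools 1 to 4. Food-restricted pools held both the highest value and the lowest (log2 fold change 0.09, SE 0.13). PYGM (gene ID 442998), the muscle phosphorylase that astrocytes also express, was at 45.0, 62.5, 47.5 and 59.5 CPM in food-restricted pools 1 to 4 and at 67.3, 71.6, 59.6 and 48.5 CPM in well-fed pools 1 to 4. Well-fed pools 1 and 2 were the highest and well-fed pool 4 lay among the low food-restricted pools (-0.20, SE 0.16).

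GYS1 (gene ID 101108772), the glycogen synthase of brain and muscle, was at 25.0, 30.5, 23.1 and 28.5 CPM in food-restricted pools 1 to 4 and at 27.8, 30.5, 30.7 and 29.6 CPM in well-fed pools 1 to 4. Food-restricted pools 1 and 3 were lower than any well-fed pool, and food-restricted pool 2 was level with well-fed pool 2. The log2 fold change was -0.15 (SE 0.13), with an interval from a 0.745-fold to a 1.09-fold level. UGP2, which makes the UDP-glucose that the synthase uses, was at -0.06 (SE 0.13), and PGM1, which links glucose 1-phosphate to glucose 6-phosphate, at -0.07 (SE 0.12). None of these 5 genes passed.

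TXNIP (gene ID 654403) encodes a glucose-induced inhibitor of glucose uptake and of thioredoxin, and serves as a readout of glucose sensing by MondoA and ChREBP. Its levels were 405, 383, 503 and 478 CPM in food-restricted pools 1 to 4, against 437, 514, 367 and 410 CPM in well-fed pools 1 to 4. The highest and the lowest pool were both well fed. Its log2 fold change was 0.03 (SE 0.13, edgeR adjusted p = 1), with an interval from a 0.839-fold to a 1.25-fold level. ARRDC4, a relative of TXNIP that the same sensors induce, averaged 71.3 ± 8.07 CPM under food restriction and 64.1 ± 10.3 CPM in well-fed pools (SD, n = 4 each; 0.15, SE 0.14).

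Along the first principal component, 10 of the genes parted the pools, 3 in one direction and 7 in the other. PFKL, PFKP and ALDOA were higher in all 4 pools above 0 than in any pool below 0. SLC16A7, LDHA, PFKFB2, UGP2, TXNIP, SLC16A1 and PDHB were higher in all 4 pools below 0. These 10 of 32 genes stand beside 23.1% of all genes tested whose pools part in this way, of which 2584 were higher in the pools above 0 and 1624 in those below. The component is drawn from the same libraries, so this is a description with no test, and it runs across the feeding groups. Neuronal markers summed to 2149, 1918, 2498 and 2092 CPM in food-restricted pools 1 to 4 and to 2236, 2175, 1988 and 1931 CPM in well-fed pools 1 to 4, so their sums overlapped between the pools above and below 0. Mature oligodendrocyte markers summed to 4999, 5377, 4542 and 3889 CPM in food-restricted pools 1 to 4 and to 4197, 3801, 5385 and 4265 CPM in well-fed pools 1 to 4, and also overlapped. Among all the marker lists read, the sums of only 2 did part the pools by side. Mediobasal hypothalamus markers summed to 1084, 980, 693 and 796 CPM in food-restricted pools 1 to 4 and to 491, 667, 879 and 1145 CPM in well-fed pools 1 to 4, higher in all 4 pools above 0. Skeletal muscle markers summed to 36.7, 29.5, 18.7 and 23.2 CPM in food-restricted pools 1 to 4 and to 18.3, 21.5, 27.5 and 30.8 CPM in well-fed pools 1 to 4, again higher in all 4 pools above 0. Within the skeletal muscle list CKM had 7 counts over all pools and MYL1 had 5. Such sums weigh each gene by its level. ACTA1 of the muscle list was at 13.1 ± 6.26 CPM under food restriction and 12.4 ± 7.19 CPM in well-fed pools (SD). In the mediobasal list POMC was at 169 ± 98.1 CPM under food restriction and 182 ± 146 CPM in well-fed pools. TBX3 varied less, at 140 ± 7.82 CPM under food restriction and 128 ± 14.9 CPM in well-fed pools. The part of cell content in the parting of the pools was not tested.

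**Figure D3:**
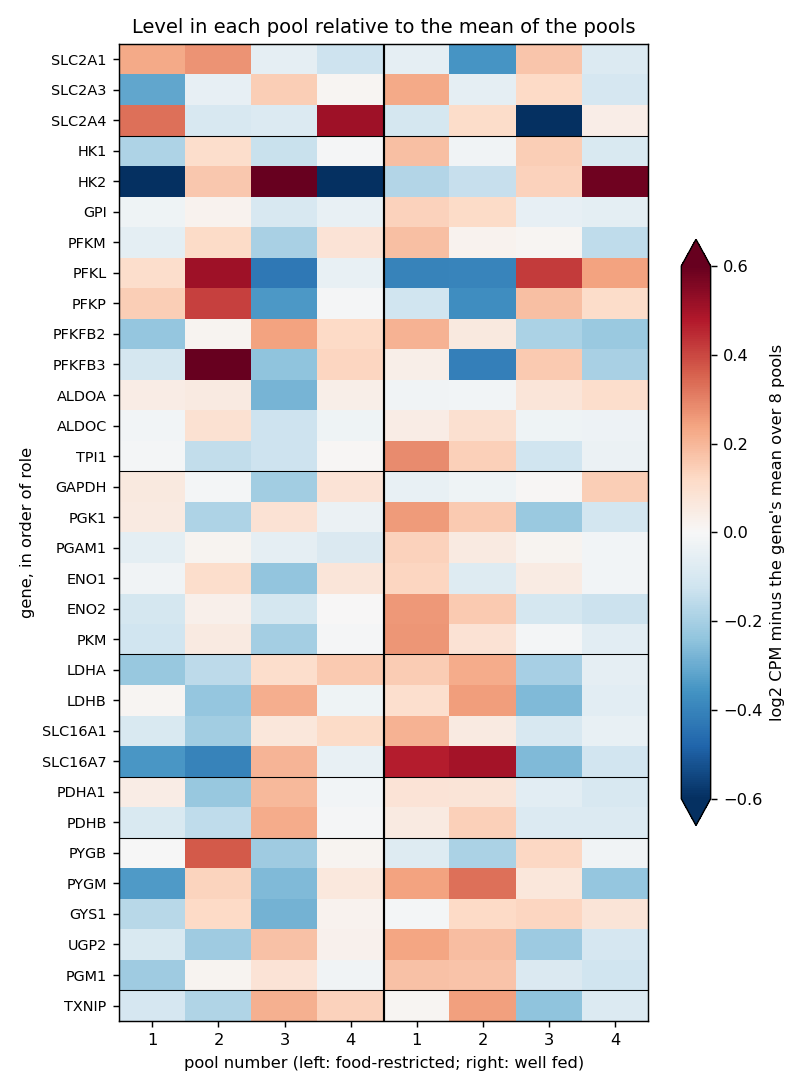
Log2 CPM of each gene minus its mean over the 8 pools (colour; red above, blue below, saturated at the ends of the scale), with food-restricted pools 1 to 4 on the left and well-fed pools 1 to 4 on the right; rules separate the roles. PFKL and PFKP are high in food-restricted pool 2 and well-fed pool 3, where SLC16A7, LDHA and TXNIP are low; no row changes colour as a whole between the 2 sides.

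Cell type markers were compared between the feeding groups, since each step of the pathway is carried by particular cells. Astrocyte markers had 5 of 8 members higher (median log2 fold change 0.04), and their sum ran from 9795 to 10840 CPM under food restriction and from 9950 to 11130 CPM in well-fed pools. Neuronal markers had 6 of 7 higher (median 0.07) and summed to between 1918 and 2498 CPM under food restriction and between 1931 and 2236 CPM in well-fed pools. Tanycyte markers had 5 of 7 tested members higher (median 0.02), microglia 4 of 7 (0.02), pericytes and smooth muscle 4 of 8 (0.0047) and endothelium 4 of 8 (-0.0022). Among tanycyte markers DIO2, the deiodinase that activates thyroid hormone, named after its value was seen, averaged 62.1 ± 13.8 CPM under food restriction and 93.7 ± 15.7 CPM in well-fed pools (SD, n = 4 each). Its log2 fold change was -0.59 (SE 0.17, unadjusted p = 0.00564 and adjusted p = 1 in the edgeR fit). Mature oligodendrocyte markers had 7 of 8 higher (median 0.10), with ERMN at 0.30 (SE 0.19) and CNP at 0.18 (SE 0.13), and none passed. Skeletal muscle markers summed to at most 36.7 CPM under food restriction and 30.8 CPM in well-fed pools, and CKM, the muscle creatine kinase, had 7 counts in all.

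Markers of blood and of adjoining tissue were also read. Red blood cell markers summed to between 0.373 and 1.45 CPM under food restriction and between 1.61 and 4.13 CPM in well-fed pools. Only HBB and AHSP of that list could be tested. HBB, a globin, averaged 0.497 ± 0.363 CPM under food restriction and 2.00 ± 1.21 CPM in well-fed pools (SD, n = 4 each). AHSP went the other way, at 0.495 ± 0.140 CPM under food restriction and 0.404 ± 0.226 CPM in well-fed pools. Neither passed (edgeR adjusted p = 1 for HBB). ALAS2 was at 0 counts in all pools. Choroid plexus markers had a median of 0.17 with members in both directions, TTR at 0.57 (SE 0.31), KCNJ13 at 1.18 (SE 0.74), FOLR1 at 0.28 (SE 0.36), CLIC6 at 0.06 (SE 0.19), KL at -0.43 (SE 0.21) and OTX2 at -0.84 (SE 0.73). Pituitary markers had a median of -0.11, with LHB at -0.60 (SE 0.68), TSHB at -0.53 (SE 0.34), FSHB at -0.19 (SE 0.26), CGA at -0.03 (SE 0.19), PRL at 0.26 (SE 0.33) and GH at 0.87 (SE 0.41). None of these passed, and their part in the values of the 32 genes was not tested.

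Ratios of related genes within a pool do not depend on how libraries are scaled, and 12 were tested. None passed after adjustment over the 12 (exact two-sided permutation tests on log2 ratios of counts, 4 pools against 4, lowest adjusted p = 0.343). The smallest p that 4 pools against 4 allow is 0.0286, and 1 ratio alone at that p comes to 0.343 after adjustment, so a single ratio could not have passed. GYS1/PYGB, glycogen synthase against phosphorylase, reached that smallest p. Its log2 ratio was -3.85, -3.93, -3.75 and -3.68 in food-restricted pools 1 to 4 and -3.62, -3.38, -3.68 and -3.59 in well-fed pools 1 to 4. Every food-restricted pool was lower than every well-fed pool, by the narrow gap between -3.681 in food-restricted pool 4 and -3.679 in well-fed pool 3. The difference of group means was -0.24, and it stayed between -0.28 and -0.17 when any 1 pool was left out. The exact permutation p was then 0.0286 without food-restricted pool 4 and 0.0571 without any other pool, and 0.125, the smallest possible, with the replicate block.

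The other ratios overlapped between groups. PYGM/PYGB averaged -2.81 ± 0.17 in food-restricted pools and -2.52 ± 0.33 in well-fed pools on the log2 scale, and SLC16A7/SLC16A1, the neuronal against the general lactate transporter, -3.06 ± 0.18 in food-restricted pools and -2.82 ± 0.29 in well-fed pools (SD, n = 4 each, exact permutation p = 0.2 for each). SLC2A1/SLC2A3 averaged 0.88 ± 0.36 in food-restricted pools and 0.63 ± 0.19 in well-fed pools (exact permutation p = 0.286). LDHB/LDHA averaged 3.73 ± 0.19 in food-restricted pools and 3.68 ± 0.04 in well-fed pools (exact permutation p = 0.657). These are ratios of counts with no correction for transcript length, so only their differences between pools can be read.

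**Figure D4:**
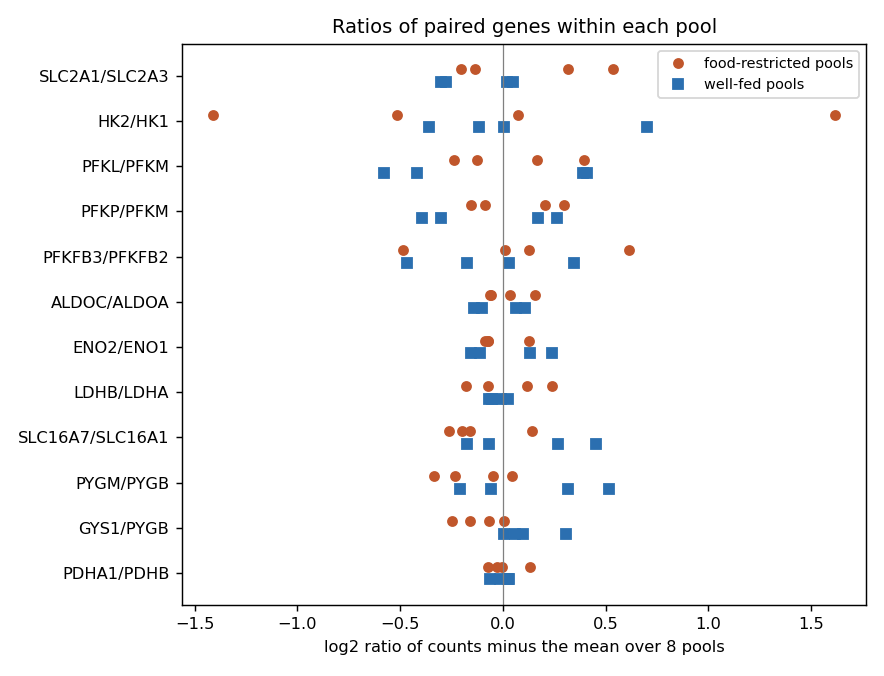
Log2 ratio of counts of 12 pairs of genes in each pool, minus the mean over the 8 pools (horizontal axis), with food-restricted pools as orange circles above well-fed pools as blue squares. GYS1/PYGB is the pair whose groups do not overlap, with a difference of -0.24, and HK2/HK1 spreads widest, with HK2 at 18 to 137 counts in a pool.

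The rest of the pathway was read from 5 further lists chosen for role, in which 0 of 74 tested genes passed. Among other transporters and glucose sensors 0 of 13 passed (median log2 fold change -0.05). SLC2A12, a facilitative glucose transporter, was at 0.30 (SE 0.16), and SLC2A13, the proton-coupled inositol transporter, at -1.39 (SE 0.77) with at most 1.04 CPM in any pool. KCNJ11 and ABCC8, which form the ATP-sensitive potassium channel of glucose-sensing neurons, were at -0.10 (SE 0.14) for KCNJ11 and 0.01 (SE 0.17) for ABCC8. MLXIPL (ChREBP) and MLXIP (MondoA), the glucose-responsive transcription factors, were at -0.18 (SE 0.17) for MLXIPL and -0.09 (SE 0.14) for MLXIP.

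Of other glycolysis genes and their regulators 0 of 17 passed (median -0.05). GPD1, the glycerol 3-phosphate dehydrogenase that draws triose phosphate towards lipid and passes on cytosolic NADH, was at 81.1, 104, 78.9 and 100 CPM in food-restricted pools 1 to 4 and at 124, 116, 108 and 101 CPM in well-fed pools 1 to 4. Food-restricted pools 1, 3 and 4 lay below every well-fed pool, and food-restricted pool 2 stood above well-fed pool 4. The log2 fold change was -0.30 (SE 0.13, unadjusted p = 0.0366 in the edgeR fit, adjusted p = 1). ADPGK, a kinase of glucose that uses ADP, was at 0.17 (SE 0.12) and FBP1, the bisphosphatase that runs against phosphofructokinase, at -0.18 (SE 0.16). In the pentose phosphate shunt 0 of 8 passed (median -0.06), with RPIA at -0.18 (SE 0.13) and H6PD at -0.17 (SE 0.13).

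Of other lactate and pyruvate genes 0 of 16 passed (median 0.03). PDK4, the kinase that shuts pyruvate dehydrogenase and is induced by fasting and glucocorticoids in peripheral tissue, was at 102, 75.5, 120 and 89.8 CPM in food-restricted pools 1 to 4 and at 123, 157, 114 and 111 CPM in well-fed pools 1 to 4. Food-restricted pools 1, 2 and 4 lay below every well-fed pool, and food-restricted pool 3 lay within the well-fed range. The log2 fold change was -0.38 (SE 0.16, unadjusted p = 0.0388 in the edgeR fit, adjusted p = 1). PDP2, the opposing phosphatase, was at 0.24 (SE 0.16) and PDK3 at -0.18 (SE 0.16). Of other glycogen genes 0 of 20 passed (median 0.02), with GSK3A, a kinase that restrains glycogen synthase, at -0.20 (SE 0.12), PPP1R3C, a glycogen-targeting phosphatase subunit, at 0.22 (SE 0.16), and EPM2A, laforin, at 0.26 (SE 0.21). Over these 5 lists 2 of 74 genes, GPD1 and PDK4, had an unadjusted p under 0.05 in the edgeR fit. Over all genes tested that share was 1.70% (1.03% lower), and neither gene passed the adjusted threshold.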

How the data were processed

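Libraries were stranded mRNA from TriReagent RNA, per the labels' protocols. The authors deposited raw read counts for each gene in each pool, per the file headers. The submitters' processing notes name TopHat2 (version 2.1.1), Bowtie2 (version 2.3.5.1), SAMtools (version 1.9) and featureCounts (version 2.0.0). For genome build, annotation, strand setting and shared reads, details were not given in the sources used here. RefSeq symbols of sheep, used for names and neighbours only, covered 28100 of 33609 gene IDs (83.6%) and all 32 members.

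Chi-square per degree of freedom between pools of 1 group was 23.9 to 160.0, above sampling noise. The labels call them replicates, so p-values measure the spread between pools. With edgeR 4.0.16 in R 4.3.3, filterByExpr (minimum count 10, minimum total 15) kept 18193 genes and TMM scaled them. The quasi-likelihood F test set food-restricted against well-fed pools without covariates, and p-values were adjusted by Benjamini-Hochberg over all genes kept. Each SE came from the log2 fold change and the F statistic, and 95% intervals used the degrees of freedom of that test. CPM values are TMM-scaled. Principal components used log2 CPM with a prior count of 2. The fit was also run on counts simulated from its own values with a common spread for all genes, and the outcome is not given here. Alternatives used DESeq2 1.42.0, limma 3.58.1 and sva 3.50.0.

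The members, the lists and the tests were chosen with earlier results of these data known. By rule, values in every pool were given for SLC2A1, SLC2A3, HK1, HK2, PFKFB3, LDHA, LDHB, SLC16A1, TXNIP, PYGB, PYGM and GYS1, and the 3 genes with the smallest p were named in each further pathway list, except 2 that are not reported here. Values in every pool for PFKL, TPI1, GAPDH, PKM, SLC16A7, GPD1 and PDK4 were chosen after their values were seen. So was the mention of ARRDC4, KCNJ11, ABCC8, MLXIPL, MLXIP, PFKFB4 and DIO2.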

Additional observations from a re-analysis of the deposited data

Results flagged for a closer look

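Of 88 sets of 4 pools examined for a pool far from the others (32 genes and 12 ratios in each of 2 groups), 2 held such a pool, where about 1 in 20, or 4.4, would be met by chance. ALDOA was at 925 CPM in food-restricted pool 3, against 1150 to 1167 CPM in the other 3 food-restricted pools. The log2 ratio ENO2/ENO1 was 0.33 in food-restricted pool 3, against 0.11 to 0.13 in the other 3. Food-restricted pool 3 also lay farthest below 0 on the first principal component, at -64.2.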

How the results depend on the processing

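Under all 19 alternatives 0 of 32 members passed, with a lowest edgeR adjusted p of 0.857, and the median of the members stayed between -0.08 and -0.01. All genes called numbered 1 in the fit reported, 0 with the replicate block and without any 1 pool, 5 in DESeq2, 6 with a block for the principal component side and 7 with 1 surrogate variable. Same-numbered pools did not vary together (correlations of -0.214, -0.420, -0.351 and -0.207 for numbers 1 to 4). The labels do not say whether the numbers pair the pools, and these correlations cannot decide it. With the replicate block 0 members passed. How many intervals lay inside a 1.5-fold change was not recomputed under the alternatives. The interval of PFKL ended at 1.49-fold in the fit reported, where its SE was 0.23. That SE was 0.29 with the replicate block and 0.12 with a block for the principal component side. Ratios were recomputed only without each pool and with the replicate block, and 0 of 12 passed, where 1 ratio alone could not pass after adjustment and the sign-flip test of the block cannot go below 0.125.

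Signs changed in 16 members, none of them called, and 16 kept theirs. PDHA1 was at -0.0043 with upper-quartile scaling, -0.0018 with no low-count filter, -0.0014 with the replicate block and -0.0017 in limma voom. HK2 was at -0.18 with the replicate block and -0.20 in limma voom. With 1 surrogate variable LDHB was at 0.0192 and PDHB at 0.0066. Leaving out 1 pool gave ranges of -0.0879 to 0.0071 for ALDOA, -0.0675 to 0.0315 for ENO1, -0.0593 to 0.0219 for GAPDH, -0.65 to 0.46 for HK2, -0.12 to 0.0067 for LDHA, -0.0951 to 0.0739 for LDHB, -0.0644 to 0.0916 for PDHA1, -0.0940 to 0.0528 for PDHB, -0.10 to 0.24 for PFKL, -0.0821 to 0.0291 for PFKM, -0.0039 to 0.23 for PFKP, -0.11 to 0.0342 for PGK1, -0.0101 to 0.17 for PYGB, -0.0945 to 0.0171 for SLC16A1, -0.0336 to 0.13 for TXNIP and -0.13 to 0.0205 for UGP2. For log2 ratios they were -0.68 to 0.33 for HK2/HK1, -0.0780 to 0.25 for PFKL/PFKM, -0.0507 to 0.32 for PFKFB3/PFKFB2, -0.0121 to 0.0759 for ALDOC/ALDOA, -0.11 to 0.0186 for ENO2/ENO1, -0.0198 to 0.12 for LDHB/LDHA and -0.0284 to 0.0408 for PDHA1/PDHB. The cause of these changes was not tested. HK2 had 18 to 137 counts in a pool.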

Other observations

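Some genes of glucose sensing and fuel use had too few reads for a test. SLC2A2, which encodes GLUT2, the transporter of pancreatic and hepatic glucose sensing, was at 0 counts in all 8 pools, as were the testis-type kinase PGK2 and the lactate transporter SLC16A8. A count of 0 allows up to 3 counts, which are between 0.0623 and 0.0829 CPM, and this covers counting error only. The glucose cotransporter SLC5A1 had 40 counts over the 8 pools, the lactate receptor HCAR1 had 60, the liver glycogen synthase GYS2 had 20 and PFKFB1 had 48.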
